A study of Mus musculus with 6 samples.

Results

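The CD8-expressing cells of B16-OVA melanomas were compared between the 2 genotypes of the study across all genes that their transcripts reached, with the weight on genes outside the effector, exhaustion and oxidative phosphorylation genes. The cells were chosen by their measured counts of unique molecular identifiers (UMIs, each standing for 1 captured transcript). A barcode was kept if it held 500 genes or more, 1000 UMIs or more, no more than 20% mitochondrial UMIs and 3 or more UMIs of Cd8a plus Cd8b1, which encode the chains of the CD8 coreceptor. It also had to hold fewer than 50 UMIs of the pigment genes Pmel, Mlana, Tyrp1 and Dct and fewer than 10 UMIs of the myeloid genes Lyz2, C1qa, C1qb and Csf1r. This left 689 cells of the 1017 cells of both tumor libraries that passed the cell filter, and of 11125 such cells in all 6 libraries of the study.

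Control mice, labelled Pdcd1fl/fl, carried floxed alleles of Pdcd1 and no Cre. Mice labelled Pdcd1 cKO carried the same floxed alleles and an E8I Cd8a-cre transgene, which acts in CD8 lineage cells after positive selection in the thymus. Both groups were C57BL/6 mice more than 8 weeks old, injected under the skin with B16-OVA, a mouse melanoma line that makes ovalbumin, and their tumors were taken on day 12. Each library pooled cells of 3 mice, which cannot be told apart in the files, so there was 1 library a side, no replicate and no test between genotypes. Libraries of thymus and spleen, used only for values beside those of the tumor, are labelled baseline and come from 1 mouse each, so they differ from the tumor libraries in more than tissue. CD8 T cells were taken with beads from dissociated tumors after removal of dead cells and read with PIPseq, a droplet method. The libraries are called the fl/fl library and the cKO library after their labels.

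Cytotoxic CD8 T cells enter tumors, read tumor peptides on class I molecules of the major histocompatibility complex (MHC) through their T cell receptor, and kill with granzymes. Pdcd1 encodes PD-1, a receptor that T cells display after stimulation and that dampens signals from the T cell receptor and from Cd28 when it binds its ligands. In tumors, CD8 T cells range from Ccr7-bearing, stem-like cells to granzyme-rich effector and exhausted cells, and they respond to interferons, chemokines and the nutrients around them.

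The fl/fl library gave 253 kept cells with 3497416 UMIs, and the cKO library gave 436 kept cells with 4997475 UMIs. The median cell held 12142 UMIs and 2230 genes in the fl/fl library, against 9323.5 UMIs and 2008.5 genes in the cKO library. Cells of the fl/fl library thus held more UMIs. Melanoma barcodes of the same libraries, defined further on, had medians of 32272 and 32880 UMIs. Whether sequencing depth or the cells themselves set the difference was not tested. Shares of cells with a transcript are therefore given after drawing 2000 UMIs at random from each cell (thinning). No barcode was present in both libraries. At the CD8 limit, 15 and 16 cells of the fl/fl and cKO libraries sat just inside with 3 UMIs, and 18 and 15 sat just outside with 2. The melanoma limit fell in a gap, since kept cells held at most 15 and 17 UMIs of the pigment genes and removed cells at least 223 and 383. Kept cells held at most 3 UMIs of the myeloid genes in both libraries, and the 4 cells over that limit, all in the cKO library, held at least 27.

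All 8 genes of the CD8 T cell list were read in both libraries, at a summed level of 6270 CPM (UMIs scaled to the same total in each library) in the fl/fl library and 7022 CPM in the cKO library, with Trbc2 the most abundant. Cd4 had 7 and 4 UMIs and Foxp3 had 7 and 8, the highest of the CD4 and regulatory T cell list, whose summed level was 5.43 and 3.80 CPM over 4 genes. The CD8 list includes Cd8a and Cd8b1, which the cell rule required, so its sum is in part set by the choice of cells, and the CD4 list was near 0. Ddx3y, a Y-linked helicase gene, stood at 317 CPM in the fl/fl library and 349 CPM in the cKO library, and Xist had 1 UMI in each, so both libraries read as male.

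Other cell types left transcripts among the kept cells, and their part in the differences between the libraries was not tested. The 13 melanoma markers were all read, at a summed 328 and 246 CPM, with Dct at 92.1 and 52.4 CPM and Pmel at 66.9 and 54.0 CPM. Oca2 went the other way at 6.29 and 16.8 CPM, a log2 ratio of 1.42 on 22 and 84 UMIs. It alone passed 2-fold among the 7 of these markers with at least 100 UMIs, of which 5 lay below 0. The cell rule limited Pmel, Mlana, Tyrp1 and Dct, and the myeloid genes Lyz2, C1qa, C1qb and Csf1r. Their levels are therefore in part set by the choice of cells. Of the 15 macrophage and monocyte markers, summed at 121 and 142 CPM and led by Ctss, Csf1r had 0 and 4 UMIs and Adgre1 had 1 and 2, while Lyz2 had 29 and 88, C1qb 13 and 52, C1qa 12 and 32 and Cd68 22 and 46. The 12 dendritic cell markers summed to 339 and 204 CPM, of which Cd74 gave 179 and 116 CPM, while Clec9a and Xcr1 had 0 UMIs in both libraries. Thus some macrophage and class II genes were read in the kept cells, whereas those of cross-presenting dendritic cells were at 0.

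The 9 B and plasma cell markers summed to 63.2 and 96.2 CPM, mostly from Ighm at 39.2 and 38.2 CPM and Igkc at 19.2 and 54.0 CPM. Among 7 natural killer (NK) cell markers, summed at 33.7 and 103 CPM, Fcer1g gave 18.3 and 82.6 CPM, and Ncr1 had 0 and 4 UMIs. The 6 γδ T cell markers in the files, of 9 listed, summed to 9.15 and 22.6 CPM, led by Trgc2, with Trdc at 0 and 2 UMIs. Fcer1g, Igkc and Trgc2 gave most of the difference in their lists, with Tyrobp at 38 and 83 UMIs and Zbtb16 at 5 and 29 also higher in CPM in the cKO library. Endothelial markers, 6 in number, summed to 118 and 141 CPM, nearly all from Cdh5, with Cldn5 at 0 in both. The 10 granulocyte and mast cell markers summed to 2.29 and 3.40 CPM with 7 at 0 in both libraries, S100a8 among them, and Cpa3 the most abundant. The 6 erythroid markers summed to 1.43 and 0.20 CPM with Hbb-bt and Alas2 at 0 in both and Hba-a1 at 1 UMI in each.

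Fibroblast markers set 1 barcode apart. The 8 genes summed to 490 CPM in the fl/fl library and 6.00 CPM in the cKO library, with the collagen gene Col1a2 at 611 and 3 UMIs. Col1a1 had 545 and 1 UMIs, Col3a1 had 300 and 0, and Sparc, which encodes another matrix protein, had 182 and 20, all 3 named after their values were seen. A single barcode of the fl/fl library, with 17066 UMIs and 3 CD8 UMIs, held 1600 of the 1638 UMIs of these 4 genes there, against 24 UMIs in the whole cKO library. Without it, in an alternative chosen after seeing the data, Col1a2 stood at −1.26 and Sparc at −0.79.

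The comparison asks which transcripts differ between tumor CD8 T cells with and without the Cre transgene. UMIs were summed over the kept cells of each library, and the log2 ratio of CPM, cKO library over fl/fl library, was taken for the 4800 genes with at least 100 UMIs in both libraries together. These genes held 96.1% and 95.9% of the UMIs. Each interval given with a ratio is an exact 95% interval for counting error only, which leaves out the spread between mice. A gene was called higher or lower when the ratio reached 2-fold. By CPM, 180 genes (3.75%) were at least 2-fold higher in the cKO library and 87 genes (1.81%) at least 2-fold lower. Scaled by the median of ratios, which takes 0.07 from each log2 ratio, 161 genes (3.35%) were higher and 103 (2.15%) lower. The median gene stood at 0.07 by CPM, with 2822 genes above 0 and 1978 below. The higher genes made up 67.4% of all genes past 2-fold by CPM and 61.0% by the median of ratios.

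Pdcd1 itself, at chr1:93966027-93980312 on the minus strand of GRCm39, was read in both libraries. It had 675 UMIs (193 CPM) in the fl/fl library and 779 UMIs (156 CPM) in the cKO library, a log2 ratio of −0.31 (−0.46 to −0.16). The ratio was −0.10 with thinned cells and −0.54 in cells with no Ccr7 UMI, an alternative chosen after seeing the data. After thinning, 26.1% of fl/fl cells and 24.1% of cKO cells held a Pdcd1 UMI, and without thinning 72.7% and 65.8%. Melanoma barcodes of the same libraries, with a median of 32272 and 32880 UMIs, held none after thinning. Both libraries therefore read the targeted gene above the melanoma background, with less than 2-fold between them. The exons that the Cre removes and the place of the tag in each transcript are not given in the sources used here, so a tag outside the deleted part would be counted in either genotype, and these counts do not check the label.

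**Figure D1:**
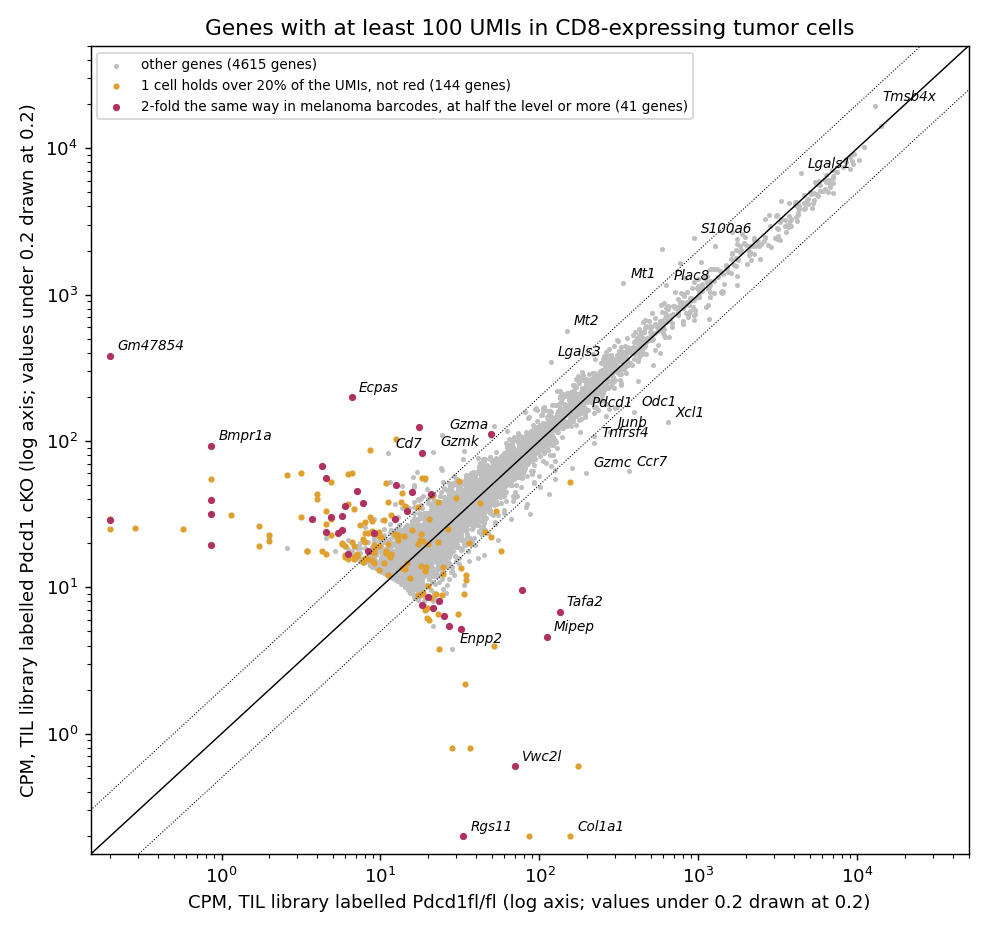
Level of each of the 4800 genes in CD8-expressing tumor cells, in CPM on log axes, with the fl/fl library across and the cKO library up. The solid line marks equal levels and the dotted lines 2-fold. Red points differ at least 2-fold the same way in melanoma barcodes, at a level no more than 2-fold under that in CD8-expressing cells. Orange points owe over 20% of their UMIs to 1 cell and are not among the red ones. Most genes lie between the dotted lines, and Gm47854, at 0 and 381 CPM, lies farthest above them.

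Many genes far from equal levels differed in the same way in the melanoma barcodes of the same libraries. The melanoma barcodes passed the cell filter, failed the pigment gene limit and held fewer than 3 UMIs of Cd8a plus Cd8b1. They numbered 133 in the fl/fl library and 49 in the cKO library, and gave 4596 genes with at least 20 UMIs among those compared. Of these, 153 (3.33%) were at least 2-fold higher and 155 (3.37%) at least 2-fold lower there. Among genes readable in both, 29 of the 156 higher in CD8-expressing cells and 12 of the 74 lower ones also passed 2-fold the same way in melanoma barcodes, at a level no more than 2-fold under that in the CD8-expressing cells. A further feature was reliance on 1 cell: in 148 genes 1 cell held over 20% of the UMIs, and 69 of these were among the higher genes and 30 among the lower. Without both kinds, 84 of 4615 genes (1.82%) were higher and 47 (1.02%) lower.

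The genes with the highest ratios show this pattern most plainly. Gm47854, a long non-coding RNA gene at chr9:51532725-51566427 that 2 other annotated genes overlap, had 0 UMIs in the fl/fl library and 1905 (381 CPM) in the cKO library, at least 444-fold higher against a floor of 3 counts. It was read at 358 CPM in melanoma barcodes and 573 CPM in myeloid barcodes of the cKO library, and at 0 in both kinds in the fl/fl library. The same RNA had 0 UMIs in both thymus libraries, and 1 and 26 in the spleen libraries. It thus marked 1 library across cell types.

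Bmpr1a, a receptor for bone morphogenetic proteins, had 3 and 463 UMIs, a log2 ratio of 6.75 (5.20 to 9.04). Ecpas, which encodes an adaptor of the proteasome, had 23 and 991 UMIs, a log2 ratio of 4.91 (4.32 to 5.58). In melanoma barcodes the ratios of these 2 genes were 2.65 and 3.15. A further 6 of the 12 highest went the same way in both cell types, among them the ankyrin repeat gene Ankrd50 (15 and 337 UMIs), the corepressor gene Cbfa2t2 (16 and 281), the flippase gene Atp8b5 (3 and 98) and Gdpd4, a phosphodiesterase family gene (3 and 159). The long non-coding RNA Gm49144 had 3 and 198 UMIs, and the olfactory receptor gene Olfr3 had 0 and 145, at least 33.8-fold higher.

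On the other side, Vwc2l, which encodes a secreted protein, had 244 and 3 UMIs, a log2 ratio of −6.86 (−9.15 to −5.30). Rgs11, a regulator of G proteins, had 116 and 0 UMIs, at least 55.3-fold lower in the cKO library. Mipep, a mitochondrial peptidase gene, had 388 and 23 UMIs, Tafa2, which encodes a secreted chemokine-like protein, had 468 and 34, and the formin gene Fhod3 had 273 and 48. All 5 were at like levels in melanoma barcodes of the fl/fl library, from 37.7 CPM for Rgs11 to 137 CPM for Tafa2, and at most 8.95 CPM in those of the cKO library. Tafa2 also stood apart in the spleen, with 2109 UMIs (6039 CPM) in the control library of that tissue and 8 (2.40 CPM) in the other. Gm45194, a predicted gene, had 94 and 27 UMIs. Whether these genes differ through genotype, through the mice pooled or through the library cannot be told apart with 1 library a side.

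**Figure D2:**
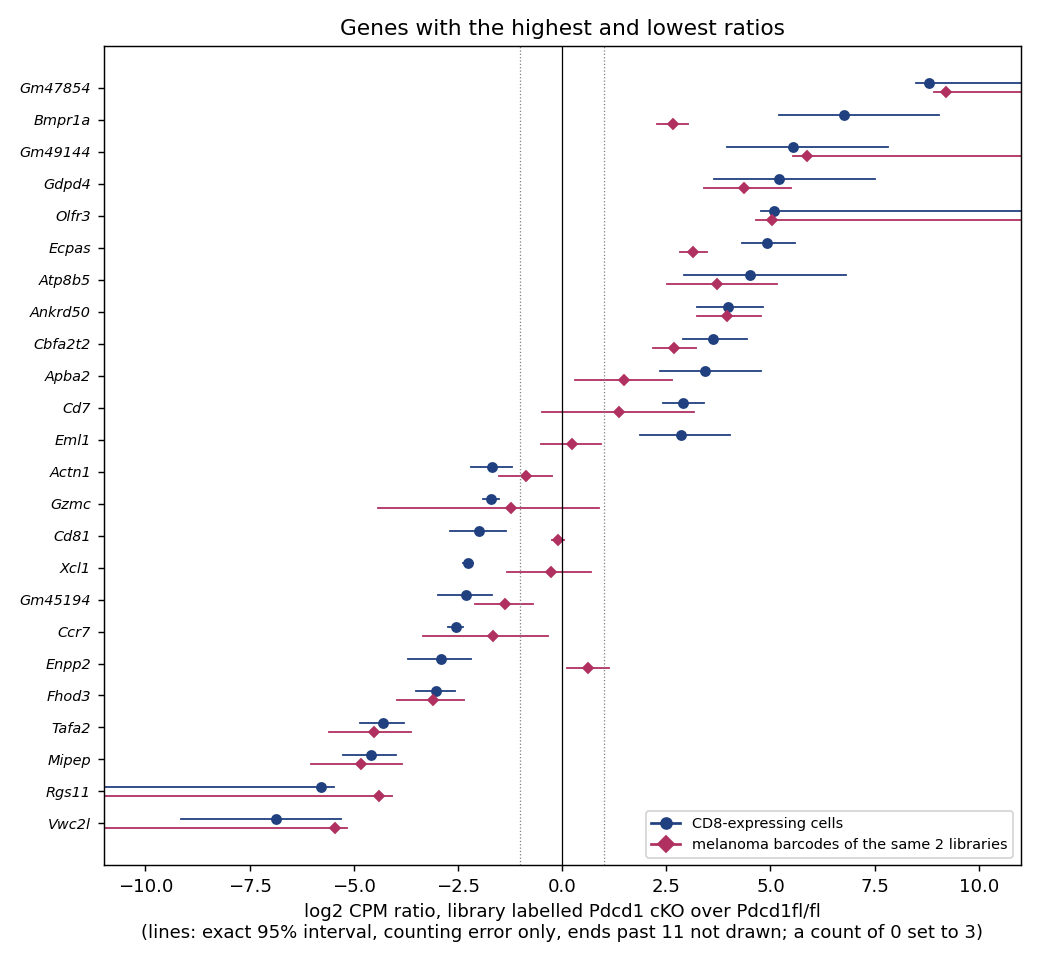
Log2 CPM ratios, cKO library over fl/fl library, of the 12 genes with the highest and the 12 with the lowest ratio among those the naming rule admits, in CD8-expressing cells (blue circles) and in melanoma barcodes of the same libraries (red diamonds), with exact 95% intervals for counting error. The red and blue values of Gm47854, Ankrd50, Fhod3, Tafa2 and Mipep lie close together, while those of Eml1, Xcl1, Cd81 and Enpp2 do not.

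The other 3 of the 12 highest and 6 of the 12 lowest either did not pass 2-fold in melanoma barcodes or were read there at a level more than 2-fold under that in CD8-expressing cells. Cd7, an immunoglobulin family membrane protein of T and NK cells, was the most abundant of the 3 higher ones. It had 39 UMIs (11.2 CPM) in the fl/fl library and 413 (82.6 CPM) in the cKO library, a log2 ratio of 2.89 (2.41 to 3.40). After thinning, 3.95% and 13.5% of cells held a Cd7 UMI, against none of the melanoma barcodes, and without thinning 11.5% and 35.1%. The adaptor gene Apba2 (7 and 108 UMIs) and the microtubule gene Eml1 (9 and 93) had ratios of 3.43 and 2.85. Apba2 stood at 0.76 in cells with at least 2 UMIs of Mki67 and Top2a, on 5 and 5 UMIs, and so did not pass 2-fold there.

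Ccr7, the receptor that guides T cells to lymph nodes, and Xcl1, a chemokine that draws cross-presenting dendritic cells, were the most abundant of the 6 lower ones. Ccr7 stood at 366 CPM in the fl/fl library and 62.2 CPM in the cKO library, a log2 ratio of −2.55 (−2.74 to −2.38). Xcl1 stood at 647 and 135 CPM, a log2 ratio of −2.26 (−2.39 to −2.14). Both were lower in the share of cells and in the count within them. After thinning, 37.5% and 6.88% of cells held a Ccr7 UMI and 45.1% and 11.5% an Xcl1 UMI, and without thinning 60.1% and 16.3%, and 66.8% and 23.6%. In melanoma barcodes, which held more UMIs each, thinned shares were 1.50% and 0 for Ccr7 and 0.75% and 2.04% for Xcl1. The mean Xcl1 count per thinned cell with a UMI was 3.14 in the fl/fl library and 1.98 in the cKO library.

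Gzmc, one of the granzymes, had 691 and 303 UMIs, a log2 ratio of −1.70 (−1.90 to −1.51). It was −1.30 in cells with fewer than 2 UMIs of the proliferation genes Mki67 and Top2a, and −4.49 in the others (cycling cells). This split, here and below, used counts before thinning in libraries whose cells held unequal UMI totals. Its classes therefore need not match between the libraries. Enpp2, which encodes the secreted enzyme autotaxin, had 99 and 19 UMIs, and the tetraspanin gene Cd81 had 75 and 27. Actn1, the actin crosslinker α-actinin, had 117 and 52 UMIs. In melanoma barcodes Enpp2 stood at 0.62 and Cd81 at −0.10, so neither was 2-fold lower there.

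Among genes with at least 1000 UMIs that the naming rule admits, the metallothionein genes Mt1 and Mt2, whose products bind zinc and copper, stood highest after Gm47854 and Ecpas. Mt1 was read at 335 CPM in the fl/fl library and 1201 CPM in the cKO library, a log2 ratio of 1.84 (1.75 to 1.93). Mt2 was read at 148 and 567 CPM, a ratio of 1.94 (1.80 to 2.08). Both were far more abundant in the melanoma barcodes, at 2827 and 3374 CPM for Mt1 and 982 and 1204 CPM for Mt2, where the ratios were 0.26 and 0.29. After thinning, 40.3% and 75.2% of the CD8-expressing cells held an Mt1 UMI, and without thinning 82.6% and 96.8%. The melanoma barcodes do not lack these transcripts, with 97.7% and 98.0% after thinning, so free RNA from them is 1 possible source of Mt1 counts, whose part was not tested.

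Lgals3, which encodes the sugar-binding protein galectin-3, stood at 118 and 347 CPM, a log2 ratio of 1.56 (1.41 to 1.72). S100a6, a calcium-binding protein of motile and memory cells, stood at 932 and 2423 CPM, a log2 ratio of 1.38 (1.32 to 1.43). Both are abundant in myeloid cells. In the 21 and 25 myeloid barcodes, Lgals3 was at 4333 and 8944 CPM and S100a6 at 2159 and 2038 CPM, so the CD8-expressing cells of the cKO library read S100a6 at about the myeloid level. Further genes of this group were under 2-fold: Lin54, a subunit of a cell cycle repressor complex, at 0.96, the small cysteine-rich protein gene Plac8 at 0.89, the membrane protein gene Cmtm7 at 0.86 and the chemokine receptor gene Cxcr6 at 0.83.

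Odc1, the first enzyme of polyamine synthesis, was the lowest of the genes with at least 1000 UMIs after Ccr7 and Xcl1, at 392 and 159 CPM and a ratio of −1.31 (−1.43 to −1.18). Junb, a subunit of the transcription factor AP-1, stood at 277 and 115 CPM, a ratio of −1.27. Tnfrsf4, the costimulatory receptor OX40, stood at 220 and 97.0 CPM, a ratio of −1.18. These 3 passed 2-fold, as did Nrgn, which encodes a calmodulin-binding protein, at −1.03. Tnfrsf4 at −0.997 in cycling cells, and Junb at −0.84 and Nrgn at −0.74 in cells with no Ccr7 UMI, an alternative chosen after seeing the data, did not. Bcl2a1b and Bcl2a1d, anti-apoptotic genes of near identical sequence, were at −0.86 and −0.83, and Rgs2, a regulator of G proteins, at −0.83. Trbc1 and Trbc2, the alternative constant regions of the T cell receptor β chain, went opposite ways: Trbc1 stood at 1165 and 678 CPM and Trbc2 at 1721 and 2002 CPM, ratios of −0.78 and 0.22.

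Gene lists were read by the number of members past 2-fold and by their median log2 ratio, beside 0.07 for all genes, of which 3.75% were at least 2-fold higher and 1.81% lower. Of 35 lists, interferon-stimulated genes had the highest median and immediate early genes the lowest. The choice of total for scaling moved every ratio by up to 0.11, so no direction is given for lists whose median lies closer to 0 than that. Beyond that limit, the medians of effector-fate factors, cytokine receptor genes and heat shock chaperones crossed 0 in another alternative, given with each list.

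**Figure D3:**
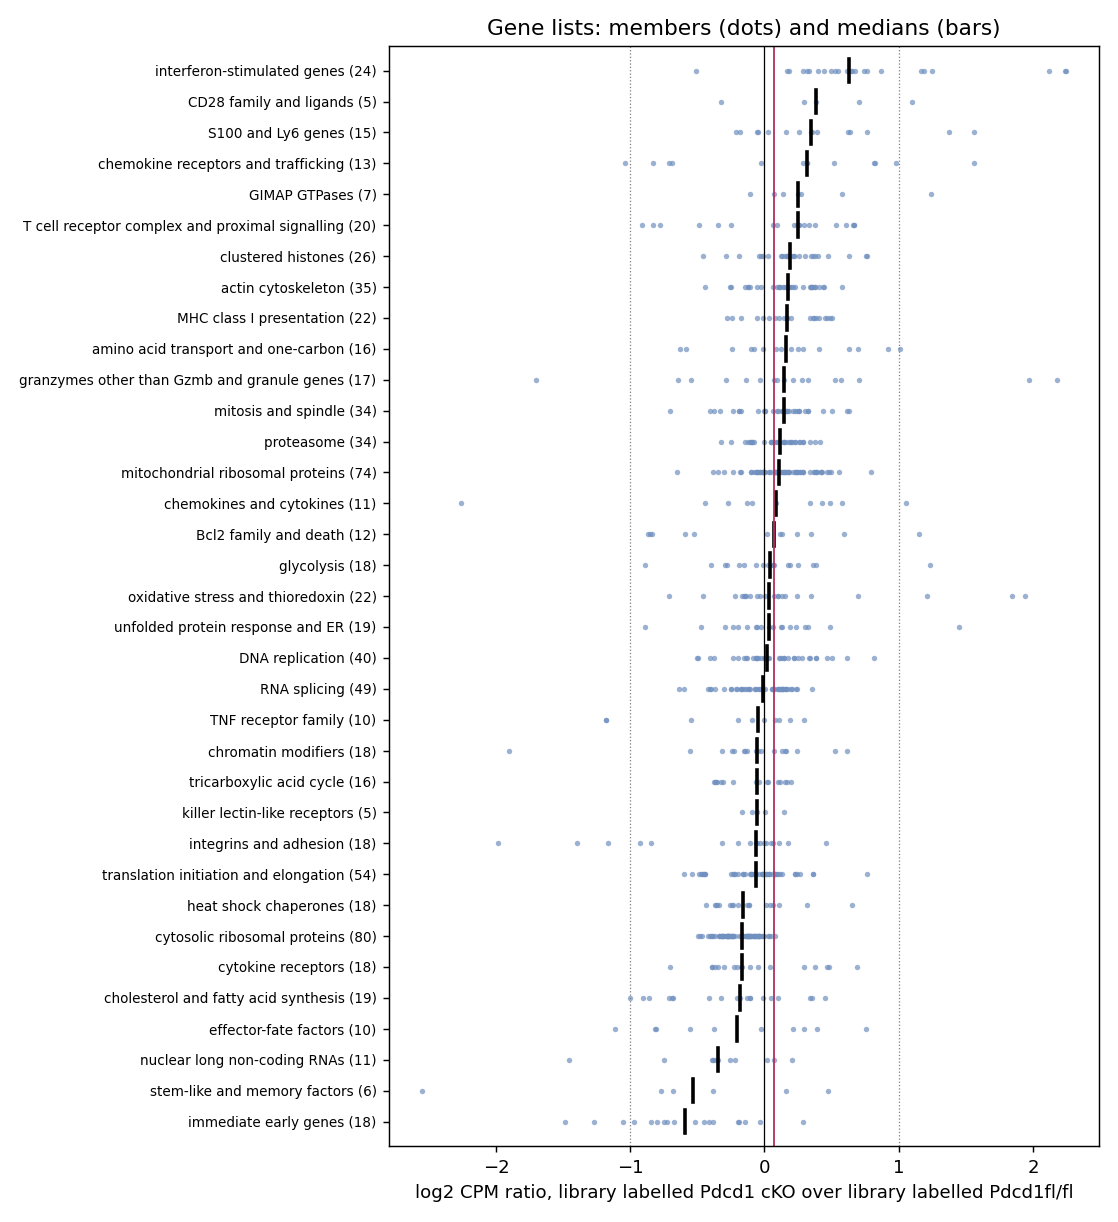
Log2 CPM ratios, cKO library over fl/fl library, of the members of 35 gene lists (dots) with each list's median (black bars), the median of all genes (red line) and the 2-fold limits (dotted lines), with the number of genes compared in brackets. Interferon-stimulated genes stand at the top with a median of 0.63 and immediate early genes at the foot with −0.59.

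Receptor and signalling genes came first among the roles. Of 20 genes of the T cell receptor complex and its near signalling, none passed 2-fold, and the median was 0.25, from Cd6 at −0.91 to the adaptor gene Lat at 0.67. The 18 cytokine receptor and signal genes had none past 2-fold and a median of −0.17 (0.06 in cells with at least 10 CD8 UMIs). Il2rb was the most abundant of them at 401 and 559 CPM. In the TNF receptor family 2 of 10 were lower, Tnfrsf4 and the adaptor gene Traf1 at −1.18 (−0.66 in cycling cells), and the median was −0.05. In the CD28 family and its ligands 1 of 5 was higher, Cd86 at 1.10 with 34 and 104 UMIs (0.21 with thinned cells), and the median was 0.38. Killer lectin-like receptor genes, 5 in number, had none past 2-fold and a median of −0.06.

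Transcription factors followed. Of 18 immediate early genes, which T cells transcribe within minutes of a stimulus, 3 were lower, Fos at −1.48 (90 and 46 UMIs), Junb, and the NF-κB inhibitor gene Tnfaip3 at −1.06. Fos stood at −0.095 with no melanoma and myeloid limits, and Tnfaip3 at −0.76 in cells with fewer than 2 UMIs of Mki67 and Top2a, so neither passed 2-fold in every alternative. The median was −0.59, and 17 of 18 lay below 0, the exception being Nfkbia at 0.29. In melanoma barcodes the same 18 genes had a median of −0.43 with 13 below 0, so a shift of this sign was not confined to CD8-expressing cells. In an alternative chosen after seeing the data, only cells with no Ccr7 UMI were compared, 101 of 253 and 365 of 436. There the median of these genes was −0.13, and Junb at −0.84 and Fos at −0.43 no longer passed 2-fold, while Xcl1 was at −2.84. Ccr7 itself differs between the libraries and the cells were not thinned, so these values do not assign the difference to either kind of cell. Stem-like and memory factors had 6 of 18 genes with enough UMIs, 1 of them lower (Ccr7). The median was −0.53, and −0.055 in cells with at least 10 CD8 UMIs. The transcription factor gene Ikzf1 was the highest at 0.47. Effector-fate factors had 1 of 10 lower, the nuclear receptor gene Nr4a3 at −1.11 (−0.35 with no melanoma and myeloid limits). Their median was −0.20, and 0.04 with no melanoma and myeloid limits.

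Interferon-stimulated genes, which cells transcribe on interferon signals, had 6 of 24 at least 2-fold higher and none lower, with a median of 0.63. Of the 24, 23 lay above 0, the exception being Ly6e at −0.51. The 6 were Xaf1 at 2.25, an apoptosis gene in which 1 cell held 49.0% of the UMIs, the RNA sensor gene Oas1a at 2.24 (16 and 108 UMIs), the exonuclease gene Isg20 at 2.12 (20 and 124), the GTPase gene Irgm2 at 1.25, the factor gene Irf7 at 1.19 and the nucleic acid sensor gene Zbp1 at 1.17 (173 and 556 UMIs). Of these calls 3 were lost in an alternative, with Irf7 at 0.18 in cycling cells and Xaf1 at 0.66 and Zbp1 at 0.81 with thinned cells. In melanoma barcodes 15 of 23 interferon-stimulated genes were at least 2-fold higher, none was lower and the median was 1.28. Isg20, Irgm2, Irf7 and Zbp1 stood there at 1.46, 1.54, 1.66 and 1.52. The median of this list was therefore above 0 in both cell types.

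Genes of MHC class I presentation had none of 22 past 2-fold in CD8-expressing cells and a median of 0.17, with B2m at 3735 and 4197 CPM. In melanoma barcodes 11 of 22 were higher with a median of 0.98, and H2-T23, a class I gene, stood at 19.0 and 130 CPM there. Genes of the T cell receptor complex were higher there too, with 6 of 15 past 2-fold and a median of 0.79, so T cell transcripts were also more abundant in the melanoma barcodes of the cKO library. The part of such mixing in these ratios was not tested.

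The promoters of the higher interferon-stimulated genes were searched for the interferon-stimulated response element (ISRE), read as GAAA, any 2 bases and GAAA again, on either strand. The windows, from RefSeq on GRCm38.p6, run from 250 bases before to 50 after each start, and 943 of 27025 hold this motif (3.49%). Of the 24 compared genes 18 have a window, and 10 of these hold it (55.6%), as do 30 of the 45 genes of the whole list with a window (66.7%). Oas1a, at chr5:120907476-120907775 on the minus strand, has 2 overlapping matches, and Irgm2, at chr11:58214727-58215026 on the plus strand, has 1, while Xaf1, Isg20 and Irf7 have none in this window and no window was available for Zbp1. Both are shown with the motif in capitals, and a match describes the sequence and is not shown to be a bound site or a cause.
Oas1a: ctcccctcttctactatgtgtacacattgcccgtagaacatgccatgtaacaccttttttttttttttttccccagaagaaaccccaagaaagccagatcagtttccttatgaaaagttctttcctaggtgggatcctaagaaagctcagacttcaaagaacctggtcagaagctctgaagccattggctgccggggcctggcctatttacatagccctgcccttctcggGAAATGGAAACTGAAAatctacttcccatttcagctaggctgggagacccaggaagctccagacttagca
Irgm2: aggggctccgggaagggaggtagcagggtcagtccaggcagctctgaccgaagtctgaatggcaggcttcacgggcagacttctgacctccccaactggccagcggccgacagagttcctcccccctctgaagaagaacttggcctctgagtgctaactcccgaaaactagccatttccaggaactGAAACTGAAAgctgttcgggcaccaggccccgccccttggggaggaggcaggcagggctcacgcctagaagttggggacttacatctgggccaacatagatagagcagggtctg

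Chemokines and cytokines had 1 of 11 higher, the cytokine gene Il16 at 1.05 (0.38 with thinned cells) on 30 and 89 UMIs, and 1 lower, Xcl1, with a median of 0.09. Chemokine receptors and trafficking genes had a median of 0.32 over 13 genes. Of these, Rgs3, a regulator of G proteins, was higher at 1.56 (0.69 in cells with at least 10 CD8 UMIs), with 24.7% of its UMIs in 1 cell, and Gpr183, which guides cells to oxysterols, was lower at −1.04 (−0.71 with stricter melanoma and myeloid limits). Integrins and adhesion genes had 3 of 18 lower, Cd81, the integrin gene Itgb1 at −1.39 (193 and 105 UMIs) and the tetraspanin gene Cd9 at −1.17, and a median of −0.06. With no melanoma and myeloid limits Cd9 stood at −0.31 and Cd81 at 0.00156, so both calls were lost and Cd81 crossed 0. Cd9 and Cd81 are abundant in melanoma barcodes, at 211 and 226 CPM and 334 and 311 CPM.

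Granzymes other than Gzmb, with other granule genes, had 2 of 17 higher and 1 lower, with a median of 0.14. Gzma, the tryptase-like granzyme A, stood at 24.3 and 110 CPM, a log2 ratio of 2.18 (1.85 to 2.53), and Gzmk, granzyme K, at 21.4 and 84.2 CPM, a ratio of 1.97 (1.62 to 2.35). Gzmc went the other way. After thinning, 2.77% and 12.8% of cells held a Gzma UMI and 1.58% and 13.1% a Gzmk UMI, and without thinning 11.9% and 32.8%, and 14.6% and 46.1%. In melanoma barcodes thinned shares were 0.75% and 2.04% for Gzma and 0.75% and 0 for Gzmk. Thus the cKO library held more Gzma and Gzmk cells and fewer Gzmc transcripts. Fcer1g, a signalling adaptor chain of NK cells that T cells also make, went with Gzma at 2.18 (64 and 413 UMIs), although myeloid barcodes held it at 1915 and 3539 CPM and its ratio in melanoma barcodes was 3.05.

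S100 and Ly6 genes had 2 of 15 higher, Lgals3 and S100a6, and a median of 0.35, with the galectin gene Lgals1 the most abundant at 4410 and 6780 CPM. Among cells with no Ccr7 UMI, S100a6 stood at 0.94, under 2-fold, and the median of the list was 0.16. The 35 actin cytoskeleton genes had none past 2-fold and a median of 0.18, with the actin-binding peptide gene Tmsb4x at 12985 and 19329 CPM. GIMAP genes, GTPases of lymphocyte survival, had 1 of 7 higher, Gimap9 at 1.24 (0.15 with thinned cells), and a median of 0.25. In the Bcl2 family and death genes 1 of 12 was higher, the initiator caspase gene Casp8 at 1.15 (0.54 in cycling cells) on 35 and 111 UMIs, and the median was 0.07.

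Metabolic lists came next. Glycolysis had 1 of 18 higher, the mitophagy receptor gene Bnip3 at 1.23 (0.76 with no melanoma and myeloid limits) on 45 and 151 UMIs, and a median of 0.04, with Ldha at 1506 and 1537 CPM. The 16 genes of the tricarboxylic acid cycle had none past 2-fold and a median of −0.06. The 19 genes of cholesterol and fatty acid synthesis had none past 2-fold, 14 below 0 and a median of −0.19, and in melanoma barcodes all 19 lay below 0 with a median of −0.76. Amino acid transport and one-carbon genes had 1 of 16 higher, the stress gene Ddit4 at 1.01, 33.9% of it from 1 cell, and a median of 0.16. Ddit4 stood below 0 in 3 alternatives, at −0.051 with stricter melanoma and myeloid limits, −0.034 without the 5% of cells with most UMIs and −0.029 without cycling cells.

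Stress lists were read in the same way. The unfolded protein response had 1 of 19 higher, Herpud1, which serves the removal of misfolded proteins, at 1.45 (84 and 328 UMIs), and a median of 0.03. Heat shock chaperones had none of 18 past 2-fold and a median of −0.16 (0.30 in cycling cells). Oxidative stress and thioredoxin genes had 3 of 22 higher, Mt1, Mt2 and the heme oxygenase gene Hmox1 at 1.21 (32 and 106 UMIs), and a median of 0.04.

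Mt1 and Mt2 lie side by side on chromosome 8 and were higher together. Their promoters are shown with matches in capitals to the core of the metal response element (MRE), TGCACNC or TGCGCNC on either strand. In the same 300-base windows, 6909 of 27025 promoters hold at least 1 match (25.6%) and 540 at least 3 (2.00%). Mt1, at chr8:94178839-94179138 on the plus strand, has 3 matches, and Mt2, at chr8:94172368-94172667 on the plus strand, has 4.
Mt1: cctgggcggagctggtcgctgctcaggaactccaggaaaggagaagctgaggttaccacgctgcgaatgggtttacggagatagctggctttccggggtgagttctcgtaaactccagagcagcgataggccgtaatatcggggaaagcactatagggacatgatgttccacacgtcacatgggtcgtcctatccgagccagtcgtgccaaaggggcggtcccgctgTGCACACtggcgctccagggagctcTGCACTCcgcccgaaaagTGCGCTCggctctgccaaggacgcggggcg
Mt2: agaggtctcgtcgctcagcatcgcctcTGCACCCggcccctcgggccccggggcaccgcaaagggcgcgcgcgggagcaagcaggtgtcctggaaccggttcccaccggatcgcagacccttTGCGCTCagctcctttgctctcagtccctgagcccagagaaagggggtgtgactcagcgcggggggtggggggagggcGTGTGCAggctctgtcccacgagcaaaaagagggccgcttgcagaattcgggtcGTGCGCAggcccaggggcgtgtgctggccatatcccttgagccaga

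Ribosomal protein genes lay mostly below 0, without reaching 2-fold. Of 80 genes of cytosolic ribosomal proteins none passed 2-fold, 76 lay below 0 and the median was −0.17, and together they held 39.9% of the UMIs in the fl/fl library and 35.5% in the cKO library. In melanoma barcodes 57 of 80 lay below 0, with a median of −0.10. Translation factors had a median of −0.07 over 54 genes, mitochondrial ribosomal proteins 0.11 over 74 and proteasome subunits 0.12 over 34, with none past 2-fold.

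Proliferation was read with lists and with single genes. DNA replication genes had a median of 0.02 over 40, mitosis and spindle genes 0.14 over 34 and clustered histones 0.19 over 26, with none past 2-fold. At least 2 UMIs of Mki67 plus Top2a were held by 19.8% of fl/fl cells and 7.11% of cKO cells before thinning. After thinning, at least 1 such UMI was held by 7.91% (4.90 to 11.9) and 8.94% (6.44 to 12.0). At least 2 such UMIs after thinning were held by 1.58% and 0.92%, which is 4 cells in each library. Over all UMIs of the kept cells, Mki67 stood at −0.70 and Top2a at −0.37. Mki67 and Top2a were named after their values were seen.

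Nuclear RNA lists came last. Splicing genes had a median of −0.01 over 49 with none past 2-fold. Chromatin modifiers had 1 of 18 lower, the remodeler gene Smarca4 at −1.91 (0.91 in cycling cells), with 47.9% of its UMIs in 1 cell, and a median of −0.05. Nuclear long non-coding RNAs had 1 of 11 lower, Snhg15 at −1.45 (−0.82 in cycling cells) on 303 and 158 UMIs, and a median of −0.34, with Gas5, the host of small nucleolar RNAs, the most abundant at 802 and 632 CPM.

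The same cell rule kept 228 and 1106 cells in the thymus libraries and 177 and 1538 in the spleen libraries, labelled Pdcd1fl/fl and Pdcd1 cKO in that order. Of the thymus cells, 39.5% and 15.3% held at least 2 UMIs of Mki67 plus Top2a, without thinning. The thymus ratios may therefore compare unlike mixes of cells. Gzmk was higher in the library labelled Pdcd1 cKO in these tissues too, with 3.17 and 23.2 CPM in the thymus and 5.73 and 48.6 CPM in the spleen, the latter on 2 and 162 UMIs. Gzma, also higher in the tumor, went the other way in the thymus, at a log2 ratio of −1.09. Cxcr6 was read at 4.44 and 27.6 CPM in the thymus and 11.5 and 32.7 CPM in the spleen. Ccr7 was not 2-fold lower there, with 317 and 565 CPM in the thymus and 341 and 312 CPM in the spleen, where the log2 ratio was −0.13 (−0.40 to 0.16). Whether the tissues differ was not tested, with 1 library of each kind.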

How the data were processed

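Single-cell RNA counts of CD8 T cells from tumor, thymus and spleen were read, 1 library for each tissue and genotype. The authors ran the PIPseq pipeline 3.2 on GRCm39, and the deposited matrices hold UMI counts per gene and barcode, with no scaling. Their Seurat 4.3.0 processing was not used. The kept tumor cells held 3497416 UMIs in the fl/fl library and 4997475 in the cKO library, which gives a median log2 interval width of 0.75. Cells were filtered by the limits given with the results. UMIs were summed over kept cells, scaled to CPM and compared as ratios for genes with at least 100 UMIs. No test was made, since each genotype has 1 library. Intervals are exact 95% intervals, Poisson for CPM, conditional binomial for ratios and Clopper-Pearson for shares, and cover counting error only. They were also run on simulated data, whose outcome is not given here, so nothing is claimed from it. Shares of cells were taken after thinning to 2000 UMIs with a fixed seed.

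Tools were Python 3.11.15, numpy 2.4.6, scipy 1.17.1, pandas 2.3.3, scanpy 1.11.5 with its scrublet, and matplotlib 3.10.9. Scrublet called 0 and 2 kept cells, and none was removed. Of 32227 gene identifiers, 31681 matched GENCODE vM39, and promoters came from RefSeq on GRCm38.p6.

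The rule for naming genes was fixed before the values given here were computed, with earlier results of these data known. It took Pdcd1, and the 12 highest and 12 lowest ratios among genes with a UMI in at least 5% of cells of the higher library, with no cell holding over 20% of the UMIs, outside effector, exhaustion and oxidative phosphorylation genes and the 10 genes of the cell rule. It also took the 10 highest and 10 lowest such genes with at least 1000 UMIs, the highest, lowest and most abundant member of each list with any other past 2-fold, sex-linked genes and the most abundant gene of each marker list. Other genes were chosen after their values were seen: Col1a1, Col3a1, Sparc, Mki67, Top2a and every marker gene given beside the most abundant of its list. The 35 pathway lists and 12 marker lists and their members were chosen with the same earlier results known. Alternatives covered scaling, gene and cell filters, CD8, melanoma and myeloid limits, thinning, doublets and cell cycle, and 4 were added after seeing the data. Genes of the effector, exhaustion and oxidative phosphorylation lists were left out of the naming rule.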

Additional observations from a re-analysis of the deposited data

Results flagged for a closer look

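The genes followed by name that were at least 2-fold apart in tumor CD8-expressing cells were looked up in the thymus and spleen libraries under the same cell rule, and those at least 2-fold apart the opposite way, with at least 20 UMIs there, are listed as a difference between tissues. Each tissue has 1 library a genotype, and the difference between tissues was not tested. The kept thymus cells with at least 2 UMIs of Mki67 plus Top2a made up 39.5% and 15.3%, so the mix of cells may differ there. In the thymus libraries the log2 ratio, Pdcd1 cKO over Pdcd1fl/fl, was −1.16 (12 and 27 UMIs) for Bmpr1a, −1.11 (12 and 28 UMIs) for Bnip3 and −1.09 (648 and 1530 UMIs) for Gzma, all 3 higher in the tumor. It was 1.44 (3 and 41 UMIs) for Enpp2, 1.05 (41 and 428 UMIs) for Traf1 and 1.77 (18 and 308 UMIs) for Xcl1, all 3 lower in the tumor. In the spleen libraries it was 1.50 (3 and 81 UMIs) for Cd9, 1.74 (33 and 1054 UMIs) for Fos, 1.39 (4 and 100 UMIs) for Gm45194, 1.06 (202 and 4013 UMIs) for Junb and 1.14 (1 and 21 UMIs) for Mipep, all 5 lower in the tumor. The counting intervals of Bnip3 and Enpp2 in the thymus and of Cd9, Gm45194 and Mipep in the spleen include 0.

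Melanoma barcodes are outside the comparison of CD8-expressing cells, and 20 of the genes followed differed there at least 2-fold in the same direction at a level no more than 2-fold under that in the CD8-expressing cells. The log2 ratio there was 3.96 for Ankrd50, 3.73 for Atp8b5, 2.65 for Bmpr1a, 2.68 for Cbfa2t2, 3.15 for Ecpas and 4.37 for Gdpd4. It was 3.05 for Fcer1g, 1.66 for Irf7, 1.54 for Irgm2, 1.46 for Isg20 and 1.52 for Zbp1. For Gm47854, Gm49144 and Olfr3, with 0 UMIs in the fl/fl library, it was at least 9.22, 5.88 and 5.04 against a floor of 3 counts. On the lower side it was −3.11 for Fhod3, −1.37 for Gm45194, −4.82 for Mipep and −4.52 for Tafa2, and with 0 UMIs in the cKO library −4.40 or lower for Rgs11 and −5.46 or lower for Vwc2l. Whether these differences come with the genotype, the pooled mice, the tumors or the library cannot be told apart.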

How the results depend on the processing

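Under 18 alternatives, 4 of them chosen after seeing the data, the share of genes at least 2-fold higher was within 1.5 times the reported value in 13 and the share lower in 14. With genes of at least 20 UMIs the shares were 9.16% and 4.95%, and with at least 500 UMIs 1.02% and 1.02%, where fewer genes with few counts are compared. With stricter melanoma and myeloid limits 1.20% were lower. With each cell thinned to 2000 UMIs 1.77% were higher and 1.05% lower, and in cells with at least 2 UMIs of Mki67 and Top2a 2.05% were higher. Without genes of which 1 cell holds over 20% of the UMIs, an alternative chosen after seeing the data, 2.39% were higher. The stricter cell filter gave the reported values.

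The Pdcd1 ratio was below 0 in all 14 alternatives that recompute it, and it left its counting interval in 3, at −0.10 with thinned cells, −0.47 in cells with at least 2 UMIs of Mki67 and Top2a, and −0.54 in cells with no Ccr7 UMI, a choice made after seeing the data. The median of all genes ranged from −0.04, with a total that leaves out mitochondrial, ribosomal protein and Malat1 counts, to 0.12.

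Of 72 genes followed, 69 had the same sign in every alternative that gave them a value, and of 35 lists 18. Of the 64 that passed 2-fold, 38 did so the same way in every such alternative. The other 26, 13 of them higher and 13 lower, fell short of 2-fold in at least 1 alternative. The values nearest 0 were, for the higher genes, Apba2 0.76, Bnip3 0.76, Casp8 0.54, Cd86 0.21, Gimap9 0.15, Igkc 0.94, Il16 0.38, Irf7 0.18, Rgs3 0.69, S100a6 0.94, Xaf1 0.66, Zbp1 0.81, and for the lower genes Cd9 −0.31, Fos −0.095, Gpr183 −0.71, Junb −0.84, Nr4a3 −0.35, Nrgn −0.74, Snhg15 −0.82, Sparc −0.64, Tnfaip3 −0.76, Tnfrsf4 −0.997, Traf1 −0.66. The remaining 3 also crossed 0. Cd81 stood at 0.00156 with no melanoma and myeloid limits. Ddit4 stood at −0.051 with stricter limits, −0.034 without the 5% of cells with most UMIs and −0.029 in cells with fewer than 2 UMIs of Mki67 and Top2a, and Smarca4 at 0.91 in cells with more. The cause was not tested for any of these. Depth limits single genes: the median log2 interval is 0.75 wide, and 1.17 wide for genes with 100 to 120 UMIs.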
